A study of Homo sapiens with 2 samples.

Results

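The Eph receptor tyrosine kinases and their membrane-bound ligands, the ephrins, were described through 10 genes: the receptors EPHA1, EPHA2, EPHA4, EPHB2, EPHB3, EPHB4 and EPHB6 and the ligands EFNA1, EFNB1 and EFNB2. They were taken by gene symbol from a table of 29972 human genes, in which each of the 10 had a row, and none was picked by a cut on its values. The remaining 12 genes of the family served as a comparison. The samples were 2 subcutaneous tumours of NCI-N87, an established human gastric carcinoma cell line with high HER2, grown in nude mice. The untreated tumour received no drug. The refractory tumour came from mice dosed every 3 weeks over 18 weeks with T-DM1, an anti-HER2 antibody that carries a microtubule poison, and is labelled as refractory to it. Each group is 1 tumour library of 1 cell line, so every value below is that of 1 library, no test across tumours was possible, and no spread between tumours is known. The labels give no dose and no age of the mice.

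Eph receptors are the largest family of receptor tyrosine kinases. They bind ephrins on the surface of neighbouring cells, and signals run into both cells. Ephrin-A ligands are held by a lipid anchor and mostly bind EphA receptors, whereas ephrin-B ligands cross the membrane and mostly bind EphB receptors, and EPHA4 binds ligands of both kinds. In epithelia the system sorts cells and sets boundaries. In the intestinal crypt EPHB2 and EPHB3 are known targets of WNT signalling and mark the proliferating compartment, while ephrin-B1 lies towards the villus. EPHA2 is common in carcinomas and has been reported to act together with HER2.

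Levels are CPM, the estimated read counts scaled to a common library size after TMM normalisation. The libraries held 75722117 (untreated) and 59902704 (refractory) estimated counts. A change is the log2 ratio, refractory to untreated, of CPM plus 1. Adding 1 CPM makes the changes of weakly expressed genes look smaller. A 2-fold difference on this scale is called higher or lower. The 14167 genes that reached 1 CPM in either library are the described genes. Ratios of CPM carry exact 95% intervals that cover counting error only. Of the 8 epithelial markers looked for, all were described, 0 were called higher and 1 lower, and HER2 itself (ERBB2) had 7268 CPM without treatment and 7974 CPM in the refractory tumour.

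Of the 10 Eph and ephrin genes, 2 were called higher in the refractory tumour (EFNA1 and EPHB2) and 2 lower (EPHB6 and EPHA4), and 6 lay within 2-fold. All 10 passed the 1 CPM filter, each of them in the untreated library already. Among all described genes 9.78% were called higher and 11% lower, so 20.8% were called either way, against 4 of 10 here. The median log2 of the 10 genes was -0.13, beside 0.03 over all described genes. The median absolute log2 was 0.64 for the 10 genes and 0.42 for all described genes. The family thus held large differences in opposite directions, with a median near that of the other genes.

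The starts of the 4 called genes, and of EFNA3, which neighbours EFNA1 and differed the other way, are shown first. Each is the stretch of the RefSeq promoter table from 250 bases before to 50 bases after a listed transcription start (GRCh38.p14), written 5' to 3' on the gene's strand. Capitals mark the core of the hypoxia response element, ACGTG or GCGTG on either strand, searched because hypoxia is known to raise several genes of this family. For EPHA4 and EPHB2, which have 2 listed starts, the one listed ahead is shown. The positions are chr2:221574153-221574452 on the minus strand for EPHA4, and on the plus strand chr1:22710588-22710887 for EPHB2, chr7:142862506-142862805 for EPHB6, chr1:155127626-155127925 for EFNA1 and chr1:155078587-155078886 for EFNA3.
EPHB6: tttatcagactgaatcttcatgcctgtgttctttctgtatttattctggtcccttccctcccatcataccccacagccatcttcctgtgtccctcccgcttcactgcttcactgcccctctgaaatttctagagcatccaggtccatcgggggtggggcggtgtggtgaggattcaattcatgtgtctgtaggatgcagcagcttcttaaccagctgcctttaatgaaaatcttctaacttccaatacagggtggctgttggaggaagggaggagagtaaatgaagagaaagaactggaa
EPHA4: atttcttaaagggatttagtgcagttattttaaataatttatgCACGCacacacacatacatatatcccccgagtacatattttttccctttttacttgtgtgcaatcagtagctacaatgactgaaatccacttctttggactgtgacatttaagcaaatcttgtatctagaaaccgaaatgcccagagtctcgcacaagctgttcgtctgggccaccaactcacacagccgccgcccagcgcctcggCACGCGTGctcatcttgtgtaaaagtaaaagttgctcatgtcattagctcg
EPHB2: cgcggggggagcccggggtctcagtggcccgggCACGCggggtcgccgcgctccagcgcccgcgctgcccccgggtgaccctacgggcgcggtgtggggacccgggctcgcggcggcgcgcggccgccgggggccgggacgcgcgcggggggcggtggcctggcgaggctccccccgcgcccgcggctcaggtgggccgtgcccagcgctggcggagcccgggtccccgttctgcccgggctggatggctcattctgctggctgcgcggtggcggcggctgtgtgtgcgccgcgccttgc
EFNA1: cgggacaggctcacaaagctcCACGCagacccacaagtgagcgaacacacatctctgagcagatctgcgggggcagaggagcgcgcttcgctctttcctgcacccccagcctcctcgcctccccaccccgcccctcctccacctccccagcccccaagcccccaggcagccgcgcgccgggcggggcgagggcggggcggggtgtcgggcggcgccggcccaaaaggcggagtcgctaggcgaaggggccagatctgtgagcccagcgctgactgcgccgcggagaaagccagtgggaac
EFNA3: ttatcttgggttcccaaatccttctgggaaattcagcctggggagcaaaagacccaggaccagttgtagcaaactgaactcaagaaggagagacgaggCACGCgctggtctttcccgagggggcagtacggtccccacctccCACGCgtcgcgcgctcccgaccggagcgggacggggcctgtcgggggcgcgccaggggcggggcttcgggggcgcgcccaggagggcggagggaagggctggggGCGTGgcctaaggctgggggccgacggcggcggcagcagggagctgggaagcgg

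The core was found in 8 of the 10 genes' starts and in 14 of the 20 family genes with an entry, beside 48.4% of 27305 gene starts of the same length. Each form of the core holds a CG dinucleotide, and the 48.4% was not matched for CG content, so no excess is read from these counts. It was present in EFNA1 and EPHB2, which stood higher, and also in EPHA4 and EFNA3, which stood lower. EPHB6 had no match in this window, which lies at a start inside the RefSeq gene: the gene begins upstream of it, at position 142855076. A TCF motif, CTTTGAT or CTTTGTT on either strand, was found in 0 of the 20 windows and in 7.71% of all gene starts. The windows differ in base composition, and neither comparison with all gene starts was matched for it. The median over all gene starts was 14 CG dinucleotides. EPHB2 held 49, more than 98.4% of all gene starts had. EFNA1 and EFNA3, called in opposite directions, each held 28. EPHA4 held 12 and EPHB6 held 3, a number that 19.0% of gene starts fell below. A match or its absence describes these letters only.

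EPHB6, a receptor whose kinase domain lacks catalytic activity (chromosome 7, coding span 142864680 to 142870904, GRCh38), had 1505 counts in the untreated and 7 counts in the refractory library. These correspond to 19.7 and 0.118 CPM, a 167-fold lower level (95% interval 80.8 to 416). Only 87 of the 14167 described genes had a smaller log2 than its -4.21. The refractory value rests on so few reads that the interval spans a wide range, yet its upper CPM ratio of 0.0124 lies far under the 2-fold line. By CPM, which is not corrected for gene length, EPHB6 lay near the middle of the described genes in the untreated library. There 45.1% of them had a lower CPM, and 1.97% had a lower CPM in the refractory one.

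EPHA4, the receptor that binds ephrins of both classes (chromosome 2, coding span 221426460 to 221572248), had 3475 and 310 counts, which are 45.5 and 5.22 CPM. It was 8.70-fold lower (95% interval 7.74 to 9.80), with a log2 of -2.90 and 239 described genes below it. Its refractory level was well above that of 3 counts, which is 0.0506 CPM in that library, whereas the level of EPHB6 was close to it.

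EPHB2, the crypt receptor (chromosome 1, coding span 22710983 to 22913570), went the other way, from 693 counts (9.07 CPM) without treatment to 2164 counts (36.5 CPM) when refractory. The ratio was 4.02 (95% interval 3.69 to 4.39) and the log2 1.90, with 406 described genes above it. EPHB3, its close relative and the other crypt receptor, did not share this difference (chromosome 3, coding span 184562236 to 184581622). It stood at 53.6 and 37.5 CPM, a ratio of 0.701 (95% interval 0.665 to 0.738).

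EPHB4, the receptor best known from veins, where it meets ephrin-B2 of arteries (chromosome 7, coding span 100803461 to 100827030), had 51.6 CPM without treatment and 89.4 CPM in the refractory library. Its ratio of 1.73 (95% interval 1.66 to 1.81) stayed inside 2-fold but excluded 1 by counting error. EPHA2, with the highest CPM of the 10 genes (chromosome 1, coding span 16125215 to 16153204), stood at 116 and 98.5 CPM, a ratio of 0.848 (95% interval 0.820 to 0.877). EPHA1 (chromosome 7, coding span 143391457 to 143408805) stood at 15.9 and 14.999 CPM, and its ratio of 0.944 had an interval that holds 1 (0.865 to 1.03). EPHA1 overlaps 2 genes on the opposite strand, ZYX (18.9 and 49.1 CPM) and the antisense RNA EPHA1-AS1 (0.955 and 3.56 CPM), and the sources used here do not say whether the counting used strand. Reads of these genes may therefore be divided between them, and the same holds for EPHB4 and SLC12A9 (19.98 and 21.8 CPM).

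Among the ligands, EFNA1, a lipid-anchored ligand of EPHA2 that was found as a gene induced by tumour necrosis factor (chromosome 1, coding span 155127978 to 155134067), had 966 and 3608 counts. These are 12.6 and 60.8 CPM, a ratio of 4.81 (95% interval 4.48 to 5.17) and a log2 of 2.18. Of the described genes 287 had a larger log2. The transmembrane ligands hardly differed. EFNB1 (X chromosome, coding span 68829777 to 68840654) stood at 50.7 and 49.6 CPM with a ratio of 0.977, and its interval of 0.931 to 1.03 holds 1. EFNB2 (chromosome 13, coding span 106493040 to 106534964) stood at 80.3 and 70.8 CPM, with a ratio of 0.882 (95% interval 0.848 to 0.917). By counting error, the ratios of 8 of the 10 genes exclude 1, of which 4 lie within 2-fold. With a library of this depth small ratios exclude 1 readily, and the intervals say nothing of the spread between tumours.

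**Figure D1:**
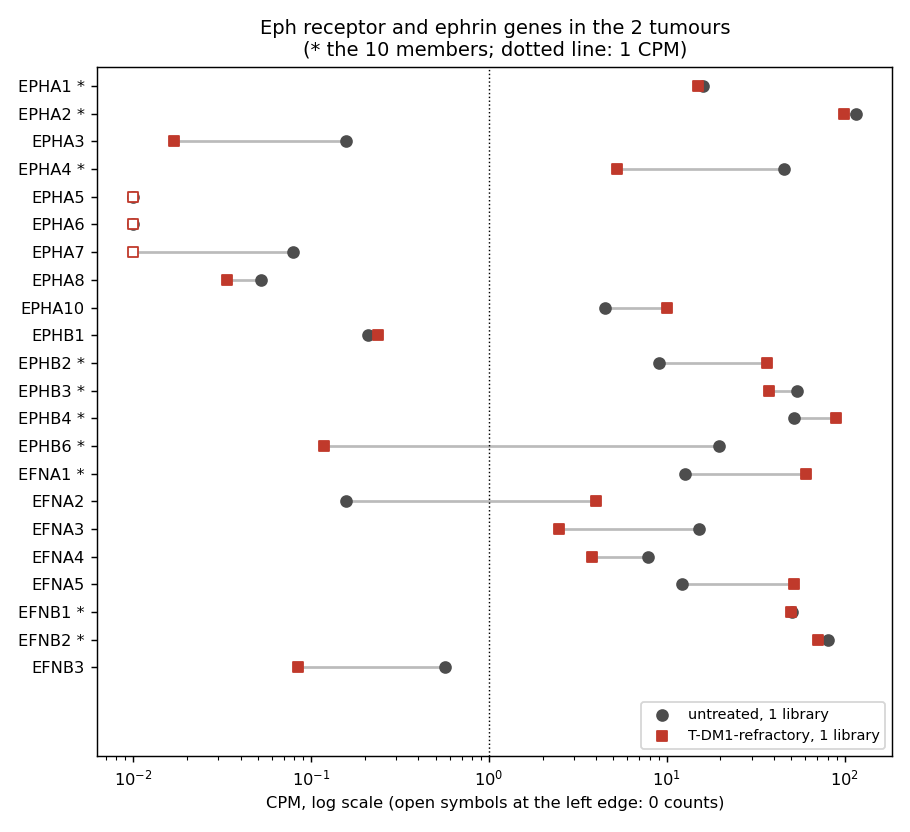
CPM (log scale) of all 22 Eph and ephrin genes, with a grey circle for the untreated and a red square for the refractory library, 1 library each. EPHB6 goes from 19.7 to 0.118 CPM and EPHA4 from 45.5 to 5.22 CPM, while EFNA1 and EPHB2 lie to the right of their untreated values.

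**Figure D2:**
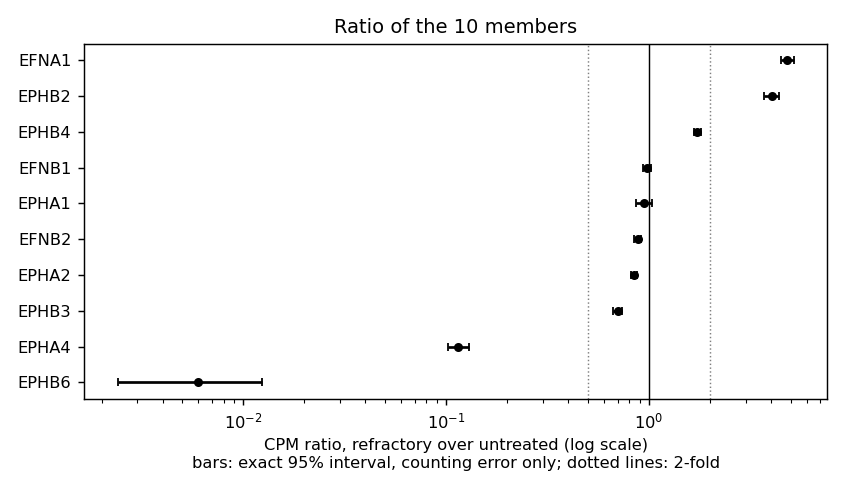
Ratio of CPM, refractory over untreated (log scale), for the 10 genes, with exact 95% intervals for counting error. EFNA1 (4.81) and EPHB2 (4.02) lie above and EPHA4 (0.115) and EPHB6 (0.00599) below the 2-fold lines, and the other 6 genes lie between them.

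In the authors' deposited table, EPHB6 had a log2 fold change of -7.36, EPHA4 one of -3.12, EFNA1 one of 2.27 and EPHB2 one of 2.01. Those values set 1 library against 1, are not on the scale with 1 CPM added, and compare these libraries only. The authors' p-values are not given here, because 1 library per group holds no spread between tumours.

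The rest of the family also differed in both directions. Of the 12 other genes 5 were described, of which 3 were called higher and 1 lower, beside 9.78% and 11% of all described genes. With so few genes these counts are a description only. EFNA5, a lipid-anchored ligand, stood at 12.1 and 51.9 CPM, a ratio of 4.29 (95% interval 3.99 to 4.62). EFNA2, another of this class, rested on 12 and 237 counts and stood at 0.157 and 3.99 CPM, a ratio of 25.4 (95% interval 14.3 to 49.9). It passed the filter only through the refractory library. EPHA10, a receptor without an active kinase, stood at 4.47 and 10.1 CPM, a ratio of 2.25 (95% interval 1.97 to 2.58), and its log2 of 1.01 was close to the 2-fold line. The call was lost with the deposited FPKM (0.54), with 5 CPM added (0.67) and with total count scaling (0.99). The call of EFNA2 was lost with 5 CPM added (0.80).

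EFNA3, of the same class, had 15.1 and 2.46 CPM and was 6.16-fold lower (95% interval 5.18 to 7.36). EFNA4 stood at 7.84 and 3.81 CPM, 2.06-fold lower by the plain ratio (95% interval 1.76 to 2.41), and with 1 CPM added its log2 of -0.88 was inside 2-fold. The 3 ligands called higher, EFNA1 included, were thus ephrin-A genes, and so was the ligand called lower.

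The other 7 genes were under 1 CPM in both libraries. EPHA5 and EPHA6 had 0 counts in both, which by counting error allows up to 0.0392 CPM (untreated) and 0.0506 CPM (refractory). EPHA7 had 6 and 0 counts, and the 95% interval of its ratio, 0 to 1.09, holds 1. EPHA3 had 12 and 1 counts, a ratio of 0.107 (95% interval 0.00251 to 0.726), and EPHA8 had 4 and 2 counts, a ratio of 0.644 (95% interval 0.0583 to 4.49). EPHB1 had 16 and 14 counts, a ratio of 1.13 (95% interval 0.510 to 2.46). EFNB3 had 43 and 5 counts, a ratio of 0.150 (95% interval 0.0463 to 0.377). At this depth these genes carried little of the family's RNA in either tumour.

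Levels of different genes can be set side by side only per length, for which the authors' FPKM (fragments corrected for transcript length and sequencing depth) were used. Summed over the 14 receptors, FPKM was 80.3 in the untreated and 74.1 in the refractory tumour, a ratio of 0.924. Over the 8 ephrins it was 67.3 and 97.0, a ratio of 1.44. The receptor total therefore differed little while its makeup shifted. EPHA2 remained the leading receptor with 40.3% and 36.4% of the receptor sum. EPHB4 went from 15.9% to 29.4% and passed EPHB3, which went from 17.1% to 12.8%. EPHB2 went from 2.49% to 10.6%, EPHA4 from 9.42% to 1.15% and EPHB6 from 6.67% to 0.0456%, and EPHA1 kept 6.65% and 6.82%.

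In the order of receptor levels in FPKM, the untreated tumour had EPHA2 (32.3), EPHB3 (13.7), EPHB4 (12.8), EPHA4 (7.56), EPHB6 (5.35), EPHA1 (5.34) and EPHB2 (1.996). EPHB6 and EPHA1 are neighbours in that order with nearly equal values. The refractory tumour had EPHA2 (27.0), EPHB4 (21.8), EPHB3 (9.46), EPHB2 (7.89) and EPHA1 (5.05), with EPHA10 (1.98) ahead of EPHA4 (0.854). Without replicates it is not known which of these neighbours differ beyond the spread between tumours.

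The ligand makeup changed more. EFNA1 made up 13.9% of the summed ephrin FPKM in the untreated and 47.0% in the refractory tumour, from 9.38 to 45.6 FPKM, and so went from the fourth place to the leading one. EFNB2 had led with 29.3% (19.7 FPKM) and took 17.7% (17.1 FPKM) in the refractory tumour. EFNB1 took 24.9% and 16.6% (16.8 and 16.1 FPKM). The shares of the transmembrane ligands were thus smaller at nearly the same level, because the sum was larger. By class, ephrin-A genes summed to 30.6 and 63.7 FPKM (ratio 2.08) and EphA receptors to 46.3 and 34.9 FPKM (ratio 0.753). Ephrin-B genes summed to 36.7 and 33.3 FPKM (ratio 0.907) and EphB receptors to 33.9 and 39.2 FPKM (ratio 1.16).

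**Figure D3:**
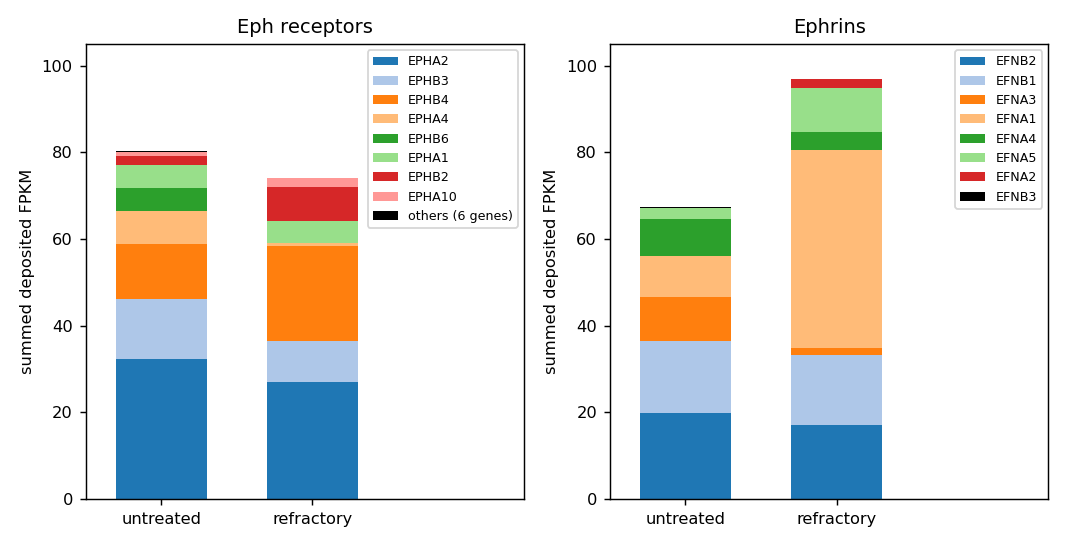
Summed deposited FPKM of the 14 Eph receptors (left) and the 8 ephrins (right) in the untreated and the refractory library, stacked by gene. The receptor bars reach 80.3 and 74.1, and the ephrin bars 67.3 and 97.0, with EFNA1 growing from 9.38 to 45.6.

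The deposited counts and FPKM together imply a transcript length for each gene in each library, which can differ with the transcripts counted. A like small difference recurred in several genes, such as EFNB1 (3051 and 3041 bases) and EPHB4 (4071 and 4061 bases). Small differences are therefore not read as a change of transcripts. For 11 of the 15 described family genes the 2 lengths differed by under 1%. The exceptions, as refractory over untreated, were EPHA1 (0.978), EFNA1 (0.971), EPHB6 (0.930, on 7 counts) and EPHA10 (1.16). For EPHA10 the implied length was 4337 bases in the untreated and 5038 bases in the refractory tumour. Its ratio was accordingly smaller in FPKM (1.90) than in CPM (2.25). EPHA10 apart, the ratio of FPKM for each described gene was close to that of CPM, for example 4.86 against 4.81 for EFNA1 and 3.96 against 4.02 for EPHB2.

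The genes lie on several chromosomes, and each was set beside its chromosome neighbours, the 15 nearest described genes on each side by RefSeq position. The 30 neighbours spanned from 0.964 Mb (EPHB4) to 14.4 Mb (EFNB1), so they are not equally near to each gene. Over all described genes 9.78% were called higher and 11% lower. EPHB2 and EPHA2 lie 6555 kb apart on the short arm of chromosome 1. Of the 30 neighbours of EPHB2, 15 were called higher and 0 lower, with a median log2 of 1.01, and 4 of them had a larger log2 than EPHB2. Relative to that median EPHB2 stood at 0.89, under the 2-fold line. Of the 30 neighbours of EPHA2, 13 were called higher and 2 lower, with a median of 0.74, yet EPHA2 stood at -0.24, and 28 of the 30 had a larger log2. EPHB2 thus differed in the direction of its neighbours, and EPHA2 did not. The part of the region in the value of EPHB2 was not tested.

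The other called genes stood apart from the median of their neighbours. Among the neighbours of EPHB6 2 were higher and 2 lower (median -0.11), and 0 of 30 had a smaller log2 than EPHB6. TRPV6, an epithelial calcium channel gene picked out here for its values, is the nearest described neighbour on the side of EPHA1 and was also lower, at 1.11 and 0.0506 CPM. EPHA1 itself lies 520 kb from EPHB6 and was within 2-fold. Among the neighbours of EPHA4 1 was higher and 6 lower (median 0.20), and 1 of 30 had a smaller log2. The nearest described neighbours of EPHA4 were SLC4A3, which was also lower (19.5 and 8.12 CPM), and SGPP2, which was within 2-fold. Both were named after their values were seen.

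On the long arm of chromosome 1, EFNA4, EFNA3 and EFNA1 follow each other, with 9.28 kb between the annotated ends of EFNA4 and EFNA3 and 40.3 kb between those of EFNA3 and EFNA1. Their log2 values were -0.88, -2.22 and 2.18. Among the neighbours of EFNA1 3 were higher and 2 lower (median 0.01), and none of the 30 had a larger log2. Adjacent genes of the same family and orientation therefore differed in opposite directions. RefSeq lists a read-through transcript of EFNA4 and EFNA3, so reads at these 2 genes may be divided between them.

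**Figure D4:**
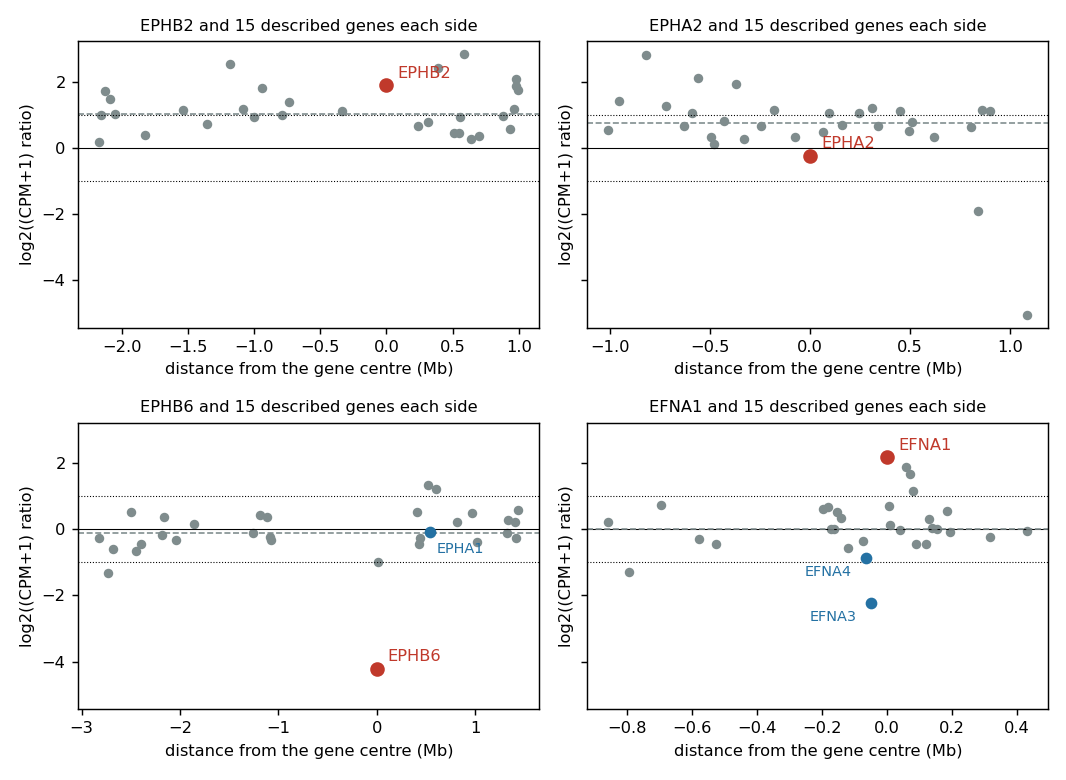
Log2 of refractory over untreated (1 CPM added) against the distance in Mb from EPHB2, EPHA2, EPHB6 and EFNA1 (red) for 15 described genes on each side (grey, family genes blue), with the neighbours' median dashed and 2-fold dotted. The neighbours of EPHB2 centre on 1.01, EPHB6 lies under all its neighbours, and EFNA1 lies above all of its own with EFNA3 below zero beside it.

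Around the receptors and ligands, 65 known signalling partners were looked at, of which 59 were described. Of these 12 were called higher (20.3%) and 7 lower (11.9%), beside 9.78% and 11% of all described genes, with a median log2 of 0.08 against 0.03. The lists were chosen with earlier results of these data known, so these shares are a description only. Kinases and phosphatases held 1 higher and 1 lower of 15. These were the kinases SRC (53.6 and 119 CPM) and FYN (9.0 and 2.73 CPM), named after their values were seen. Adaptors and scaffolds held 5 higher and 1 lower of 18. GRB10, an adaptor of receptor kinases, stood at 17.8 and 88.7 CPM (ratio 4.99, 95% interval 4.70 to 5.30). ANKS1A, an adaptor that binds Eph receptors, stood at 23.0 and 61.1 CPM. GRIP1, a PDZ protein that binds the tails of ephrin-B ligands, was the lower member at 15.6 and 1.72 CPM.

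Small GTPases and their regulators, through which Eph receptors act on the actin cytoskeleton, held 5 higher and 3 lower of 17 (median 0.58). These are 29.4% and 17.6%, beside 9.78% and 11% of all described genes (median 0.03). ARHGEF16, an exchange factor that binds EPHA2, stood at 18.3 and 50.04 CPM. CDC42, a GTPase of actin protrusion, stood at 188 and 489 CPM, and it is itself one of the neighbours of EPHB2 on chromosome 1. The chimaerins, which switch off Rac, differed in opposite directions. CHN1, the chimaerin that acts downstream of EPHA4 in neurons, stood at 11.8 and 0.371 CPM, and CHN2 stood at 3.52 and 11.5 CPM. The call of CHN2 was lost with 5 CPM added (0.96) and with the deposited FPKM (0.996). The Rac exchange factor TIAM1 stood at 16.5 and 0.118 CPM, 140-fold lower (95% interval 67.6 to 348), and DOCK4, another of this function, at 3.38 and 0.135 CPM. The call of DOCK4 was lost with 5 CPM added (-0.71).

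Proteases that cut ephrins or their receptors held 1 higher and 2 lower of 9 (median 0.08). These are 11.1% and 22.2%, beside 9.78% and 11% of all described genes (median 0.03). ADAM10, the sheddase of ephrin-A ligands, had 1238 and 398 CPM and was 3.11-fold lower (95% interval 3.06 to 3.15). PSENEN, a subunit of gamma-secretase (30.04 and 62.8 CPM), was higher, and RHBDL2, a membrane protease (29.2 and 13.1 CPM), was lower, both named after their values were seen.

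**Figure D5:**
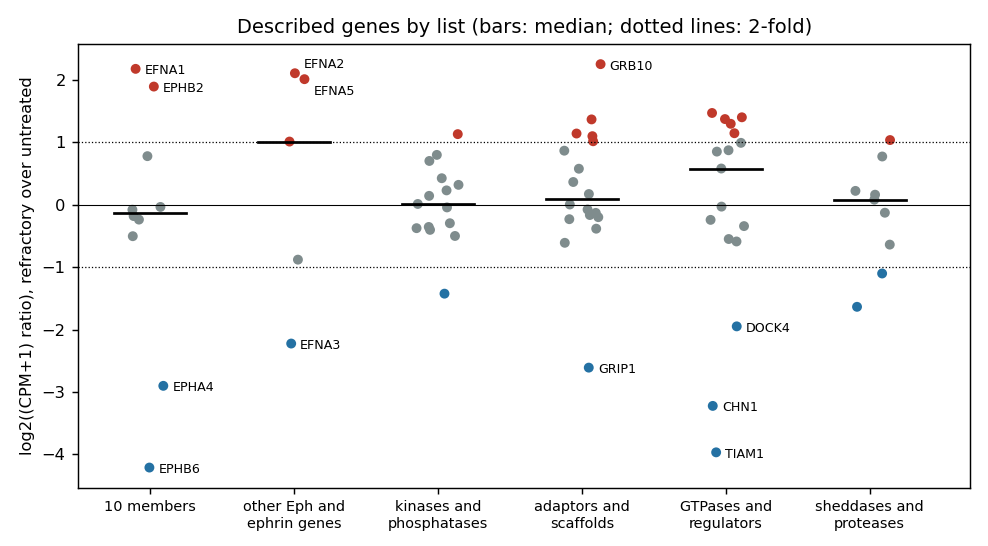
Log2 of refractory over untreated (1 CPM added) for the described genes of the 10 members, the other family genes and the 4 signalling lists, red where called higher and blue where called lower, with the median as a bar. The members range from -4.21 (EPHB6) to 2.18 (EFNA1), around a median of -0.13.

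Several of these genes are also known from cells of the host, such as EPHB4 and EFNB2 from vessels, and the submitters' notes name a mouse genome build without its use. In a bulk sample fewer cells of a type and less RNA per cell cannot be told apart. The marker counts below stand beside 9.78% of all described genes called higher and 11% called lower. Of 10 human endothelial markers 3 were described, 0 higher and 1 lower, and all 10 together summed to 6.88 CPM (untreated) and 1.15 CPM (refractory). CDH5 and TIE1 were at 0 counts in both and PECAM1 at 0.131 and 0.0843 CPM. The called marker, ROBO4, stood at 2.29 and 0.0674 CPM and VWF at 1.39 and 0.202 CPM, while TEK (0.706 CPM) and KDR (0.379 CPM) had 0 counts in the refractory library. EPHB4 had 51.6 CPM or more in each library. Host cells are mouse cells, so marker counts on human genes, here and below, do not measure how many host cells were present. Of 10 fibroblast and mural markers 2 were described and none was called, with sums over all 10 of 11.9 and 8.41 CPM. COL1A2, COL3A1 and DCN were at 0 in both. Of 10 immune markers 5 were described, 3 higher and 1 lower. The sums over all 10 were 44.7 and 130 CPM, mostly LYZ (27.2 and 95.9 CPM), which gastric epithelium also makes. PTPRC stood at 0.0654 and 0.286 CPM, and CD3E, MS4A1 and TYROBP were at 0. Besides LYZ, the higher markers were CD68 (3.62 and 29.2 CPM) and ITGAM (0.419 and 3.32 CPM). CD14 stood at 0.445 and 1.43 CPM, within 2-fold with 1 CPM added, and NCAM1, the lower marker, at 12.9 and 0.0674 CPM. The part of host reads in the Eph and ephrin values was not tested.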

How the data were processed

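Both libraries, 1 per group, were read from the authors' table. The deposited read counts are estimates (expected counts), some of them fractional, and the deposited FPKM are, per the file headers, scaled for length and library. The submitters' processing notes name STAR 2.7.0e, RSEM 1.2.28, edgeR 3.26.8 and bcl2fastq 2.20, and the builds GRCh38 and GRCm38, without their roles. The authors' deposited log2 fold change was copied only, and their p-value is not given.

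Expected counts were rounded and TMM-scaled with edgeR 4.0.16 in R 4.3.3 (factors 1.0095 untreated, 0.9906 refractory). The exact intervals are Clopper-Pearson intervals of 2 Poisson counts given their sum. Reads here carry no molecular identifiers, so intervals and floors of 3 counts cover counting error only. The calculation was tested on simulated data. Coding starts are counted from 1: 8540 of 9000 plus-strand coding genes met a GENCODE 29 start after 1 was added. RefSeq (GRCh38.p14) positions placed 95.5% of described genes, and its promoter table held 20 of the 22 family genes, all but EPHA10 and EFNB3. The genes and lists were chosen with earlier results of these data known. The named genes are the family, ERBB2, the 5 largest called changes in each direction among signalling partners, and markers at or near 0 or past 2-fold; others are said to be chosen by value. With 2 libraries no likeness of pattern was computed. Alternatives were 3 scalings (median of ratios from DESeq2 1.42.0), pseudocounts, filters, thresholds, FPKM, TPM, other sums and neighbour sets, and, added after the data were seen, unrounded counts and values relative to chromosome neighbours.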

Additional observations from a re-analysis of the deposited data

How the results depend on the processing

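No paired analysis was possible because each group holds 1 library. The calls of EPHB6, EPHA4 and EFNA1 held under all scalings, pseudocounts of 0.1 and 5 CPM, no filter, a filter of 10 CPM, FPKM, thresholds of 1.5-fold and 4-fold, unrounded counts and values relative to neighbours. EPHB2 was not called at 4-fold or relative to its neighbours, each of which left 1 higher member in place of 2. EPHB4 was called higher at 1.5-fold. The sizes depended on the added value: the log2 of EPHB6 ranged from -6.50 to -2.27. Other family genes called lower were 2 with 0.1 CPM added and 2 at 1.5-fold, in place of 1. Of all described genes 1919 and 2678 were lower at these settings, in place of 1555. Other family genes called higher were 1 with 5 CPM added, in place of 3, beside 821 of all described genes in place of 1386. They were 2 with total count scaling, FPKM, a 10 CPM filter and at 4-fold. At 4-fold 1 signalling gene was higher and 3 lower, beside 360 and 504 of the 14167 described genes. At 1.5-fold 19 were higher, beside 2754, and with 5 CPM added 4 were lower, beside 842. The main call gave 12 and 7 signalling genes, beside 1386 and 1555. Those called higher were also 11 with total count scaling, 10 with FPKM and 8 with 5 CPM added. Those called lower were also 6 with FPKM, 5 with a 10 CPM filter and 10 at 1.5-fold. The moves at 1.5-fold and 4-fold follow from the looser or stricter call itself. Those with 0.1 or 5 CPM added came at the 2-fold call, where the added value changes each log2, most for weakly expressed genes. Other scalings moved the median log2 of all described genes from 0.03 to between 0.00 and 0.02. Depth limits EPHB6, with 7 counts in the refractory library, and the 7 family genes under 1 CPM, for which ratios have wide intervals. With only the 10 genes in the sums, EFNA1 took 20.4% and 57.8% of the ephrin FPKM in place of 13.9% and 47.0%.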
